A study of Mus musculus with 2 samples.

Results

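The genes described here are 10 listed members of the mouse NF-kB and IkB families, 5 of which encode the DNA-binding subunits and 5 inhibitor-like IkB proteins. They were taken by symbol, and all 10 were among the 34714 genes of the expression table. Their levels were measured in bone marrow-derived macrophages of C57BL/6 mice exposed for 24 h to FGK45, an agonist monoclonal antibody against CD40, and in the same kind of macrophages exposed to IgG for as long. Both cultures were grown with 20 ng/mL M-CSF, the growth factor that turns marrow cells into macrophages. The study's title places the work in chronic rejection of transplanted hearts. Each group is 1 RNA-seq library, and the labels used here do not give the number of mice or cultures behind either, so no difference below has a replicate check and no test was run.

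NF-kB is a family of transcription factors that act as pairs of subunits. In the canonical pathway, receptor signals activate the IKK complex, which marks IkB proteins for destruction and so frees pairs such as p50 with RelA or c-Rel to enter the nucleus. In the non-canonical pathway, which CD40 is a textbook trigger of, the kinase NIK accumulates and drives the processing of p100 to p52, which pairs mostly with RelB. In macrophages these pairs switch on cytokine, chemokine and survival genes, and also the genes of some of their own inhibitors. Much of this control acts on proteins, whereas the values here are transcript levels. In bulk RNA, fewer cells of a type and less RNA per cell cannot be told apart.

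The table held 9591 genes at 1 FPKM or more in at least 1 library (FPKM, fragments normalised for transcript length and library size). The aligned sequence was estimated at 6.16 gigabases in the anti-CD40 library and 5.58 gigabases in the IgG library. The column sum was lower with anti-CD40 (529104, against 547362 with IgG), but the middle gene was higher. The median log2 ratio of (FPKM + 1), anti-CD40 over IgG, was 0.12, and the interquartile range ran from -0.06 to 0.27. A member near 0.12 was therefore near the middle of all genes. All 9 macrophage markers reached 1 FPKM in each library and summed to 15266 FPKM in the anti-CD40 library and 12960 FPKM in the IgG library. Nearly all of that sum was Lyz2, and others did not follow it: Csf1r had 332.8 FPKM with anti-CD40 and 333.5 FPKM with IgG, and Fcgr1 27.1 FPKM with anti-CD40 and 30.3 FPKM with IgG. Markers of other cells were low. Those of B cells, which also carry CD40, summed to 1.23 FPKM in the anti-CD40 library and 0.978 FPKM in the IgG library, with 0 of 5 at 1 FPKM and Pax5 listed at 0. Those of dendritic cells summed to 0.232 FPKM in the anti-CD40 library and 0.303 FPKM in the IgG library, with 0 of 7 at 1 FPKM and Flt3 listed at 0. T and NK cell markers summed to 4.22 FPKM in the anti-CD40 library and 3.24 FPKM in the IgG library, nearly all of it Cd4, and neutrophil markers to 1.90 FPKM with anti-CD40 and 1.24 FPKM with IgG. Stromal markers summed to 1.09 FPKM in the anti-CD40 library and 0.470 FPKM in the IgG library, and mast cell and basophil markers to 0.858 FPKM with anti-CD40 and 0.845 FPKM with IgG. Erythroid markers summed to 1.45 FPKM with anti-CD40 and 3.59 FPKM with IgG. The part of these low markers in the results was not tested.

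All 10 members reached 1 FPKM in each library, so none was lost to the filter on low values. Their levels spanned 29.8-fold in the anti-CD40 library, where they ran from 1.93 to 57.4 FPKM. In the IgG library they spanned 32.0-fold, running from 1.55 to 49.5 FPKM. With anti-CD40 the order was Nfkbia, Rela, Nfkb2, Nfkbib, Relb, Nfkbid, Nfkbie, Nfkb1, Nfkbiz and Rel. With IgG it was Rela, Nfkb2, Nfkbia, Nfkbid, Nfkbib, Relb, Nfkbie, Nfkb1, Nfkbiz and Rel. Nfkbia thus stood first with anti-CD40 and below Rela and Nfkb2 with IgG, and Nfkbid stood lower in the order with anti-CD40. Some neighbours were not separated by counting error. With anti-CD40 these were Nfkbia and Rela, whose ratio was 1.05 (95% interval 0.990 to 1.11), and Nfkbib and Relb (1.03, 0.946 to 1.13). With IgG they were Nfkbid and Nfkbib (1.09, 0.991 to 1.21), Nfkbib and Relb (1.03, 0.931 to 1.13), and Nfkb1 and Nfkbiz (1.08, 0.947 to 1.24). Nfkb1 and Nfkbiz were 2.25-fold apart with anti-CD40. Intervals here and below cover counting error only, not variation from culture to culture.

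**Figure D1:**
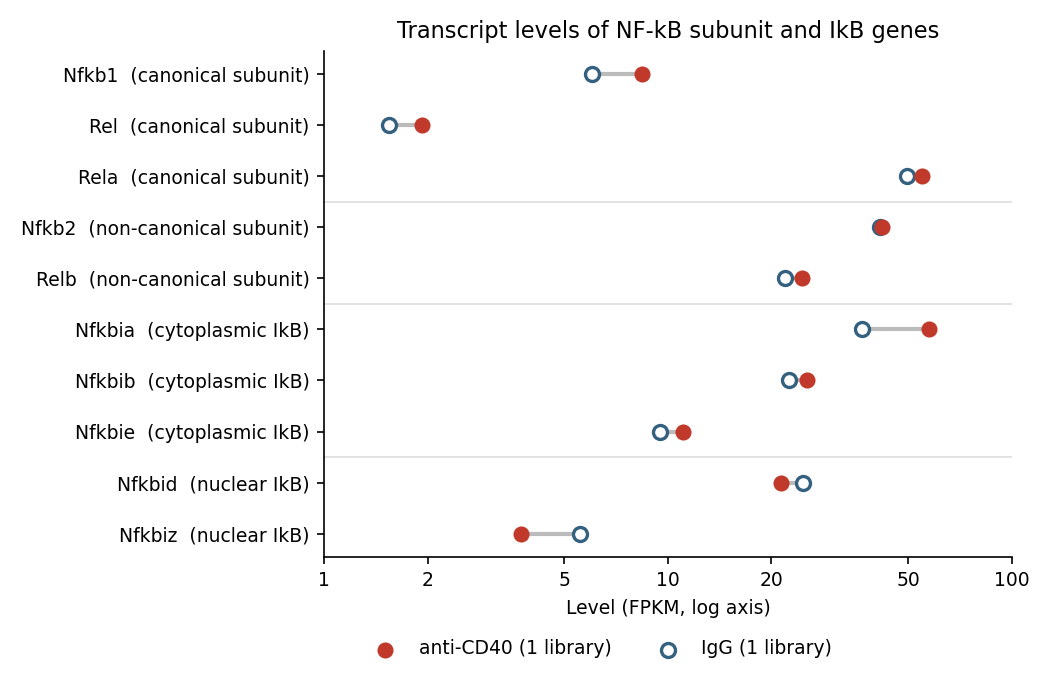
Level of each member in the anti-CD40 library (filled points) and the IgG library (open points), 1 library each, in FPKM on a log axis. Nfkbia and Nfkb1 lie to the right with anti-CD40, Nfkbiz and Nfkbid to the left, and the points of Nfkb2 nearly coincide.

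Nfkb1, which encodes p105, the precursor of p50 and itself an inhibitor while unprocessed, lies on chromosome 3 (135584655 to 135691969, minus strand, GRCm38). It had 8.41 FPKM in the anti-CD40 library and 6.00 FPKM in the IgG library. The ratio was 1.40 (95% interval 1.25 to 1.58) resting on roughly 711 fragments (anti-CD40) and 459 (IgG), so it was the subunit gene with the largest ratio. Of the 9591 genes, 815 or 8.50% had a log2 ratio at least as high as its 0.43. Rela, on chromosome 19 (5637442 to 5648134), encodes p65, the main activating subunit of the canonical pathway. It had 54.8 FPKM in the anti-CD40 library and 49.5 FPKM in the IgG library, a ratio of 1.105 (1.05 to 1.17). That is close to the median FPKM ratio of all genes, 1.11, and 46.6% of genes had a log2 ratio at least as high. Rel, on chromosome 11 (23736847 to 23770969), encodes c-Rel, best known from lymphocytes and from the interleukin-12 genes of macrophages. It was the lowest member, with 1.93 FPKM in the anti-CD40 library and 1.55 FPKM in the IgG library. Its ratio was 1.25 (1.04 to 1.49), an interval that contains that median FPKM ratio, and 35.6% of genes had a log2 ratio at least as high.

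Nfkb2, on chromosome 19 (46300994 to 46312400), encodes p100, the precursor of p52 and an inhibitor that holds RelB in the cytoplasm. It had 42.0 FPKM in the anti-CD40 library and 41.3 FPKM in the IgG library, a ratio of 1.02 (0.962 to 1.08). It was the only member whose interval contained 1, and its interval lay below the median ratio of all genes. Relb, on chromosome 7 (19606217 to 19629438), encodes the partner of p52. Its level was 24.5 FPKM in the anti-CD40 library and 21.9 FPKM in the IgG library, a ratio of 1.12 (1.02 to 1.22). Relb was near the middle of all genes, with 44.9% having a log2 ratio at least as high. The levels of both non-canonical subunit genes were thus well above those of Nfkb1 and Rel in each library, with little difference between libraries. Relative to the median of all genes Nfkb2 was 0.10 lower on the log2 scale, so its direction turns with the scaling, and Rela falls just below 0 when libraries are rescaled to their upper quartiles. The place among all genes also depends on transcript GC content. Measured from the trend of all genes on GC, Nfkb2 was 0.027 higher, Relb 0.17 higher and Rela 0.15 higher. From the median the values were -0.099, 0.029 and 0.019.

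**Figure D2:**
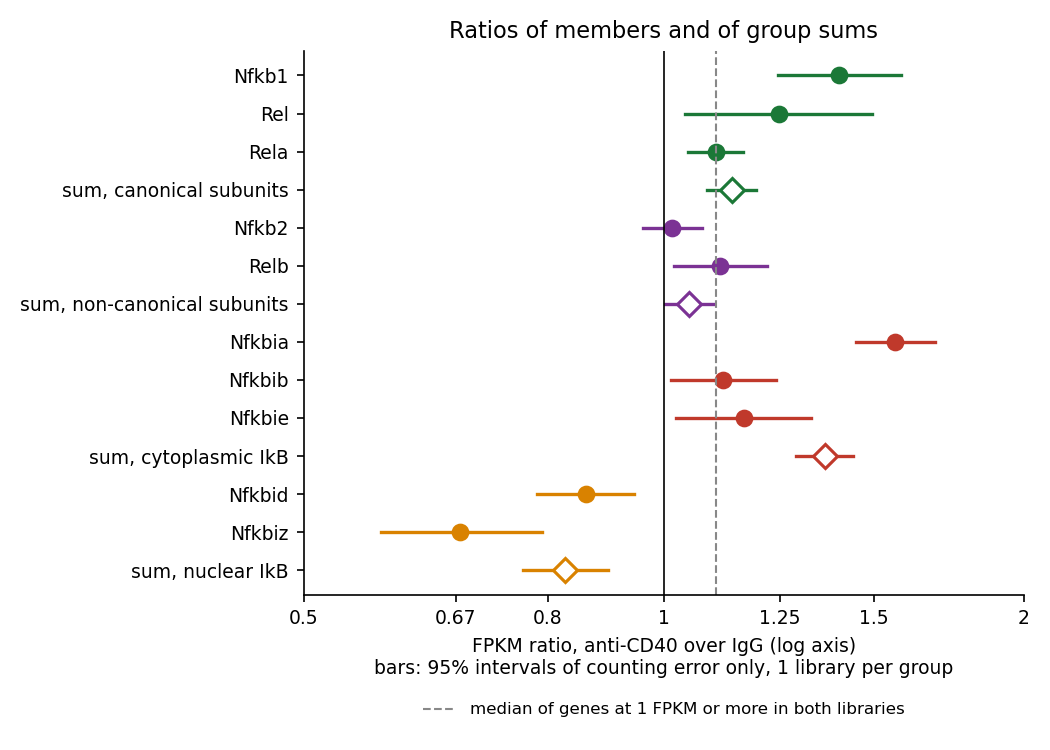
FPKM ratio, anti-CD40 over IgG, of each member (circles) and of the summed members of each group (diamonds) on a log axis, with 95% intervals of counting error. The dashed line is the median ratio of genes reaching 1 FPKM in each library (1.11); Nfkbia and Nfkb1 lie above it, Nfkb2, Nfkbid and Nfkbiz below it, and the intervals of the other 5 members contain it.

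Set side by side, the canonical subunit genes (Nfkb1, Rel and Rela) summed to 65.1 FPKM in the anti-CD40 library and 57.1 FPKM in the IgG library, a ratio of 1.14 (1.09 to 1.20). The non-canonical genes (Nfkb2 and Relb) summed to 66.5 FPKM in the anti-CD40 library and 63.2 FPKM in the IgG library, a ratio of 1.05 (1.002 to 1.10). Non-canonical transcripts were therefore slightly scarcer relative to canonical ones with anti-CD40, at 1.02 per canonical transcript, against 1.11 with IgG. The quotient of these ratios was 0.922 (0.862 to 0.986), a value that no scaling of the libraries can change. The precursor genes differed more in proportion than the Rel-type partners. Nfkb2 stood at 4.99 times the level of Nfkb1 with anti-CD40 and 6.89 times with IgG, a quotient of 0.725 (0.637 to 0.826). The partners stood in nearly the same proportion in both libraries, Relb standing at 0.447 of Rela with anti-CD40 and 0.443 with IgG (quotient 1.01, 0.911 to 1.12). The interval for Rel over Rela also contained 1 (0.0352 with anti-CD40, 0.0312 with IgG, quotient 1.13, 0.940 to 1.36). When libraries are centred on the median gene, the canonical sum stays higher with anti-CD40 while the non-canonical sum turns lower (log2 0.067 and -0.050).

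Of the cytoplasmic inhibitors, Nfkbia encodes IkBalpha, which is degraded first on canonical signalling and is known to be resynthesised under control of NF-kB itself. It lies on chromosome 12 (55489409 to 55492647, minus strand). Nfkbia had 57.4 FPKM in the anti-CD40 library and 36.8 FPKM in the IgG library, a ratio of 1.56 (1.45 to 1.69) resting on roughly 1860 fragments (anti-CD40) and 1078 (IgG). It was the member with the largest ratio, and 202 genes or 2.11% had a log2 ratio at least as high as its 0.63. Nfkbib, on chromosome 7 (28758251 to 28766644), encodes IkBbeta, a slower-turning relative. It had 25.3 FPKM in the anti-CD40 library and 22.6 FPKM in the IgG library, a ratio of 1.12 (1.01 to 1.24). Nfkbie, on chromosome 17 (45555700 to 45563169), encodes IkBepsilon. Its level was 11.03 FPKM in the anti-CD40 library and 9.45 FPKM in the IgG library, a ratio of 1.17 (1.02 to 1.33). Both intervals contain the median of all genes, so among these inhibitors Nfkbia alone stood clear of it. Nfkbia stood at 2.27 times Nfkbib with anti-CD40 and 1.63 times with IgG (quotient 1.39, 1.23 to 1.58), and at 5.21 times Nfkbie with anti-CD40 and 3.89 times with IgG (1.34, 1.15 to 1.55). The cytoplasmic IkB genes summed to 93.8 FPKM in the anti-CD40 library and 68.8 FPKM in the IgG library, a ratio of 1.36 (1.29 to 1.44).

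The nuclear IkB proteins bind p50 or p52 on DNA and can help as well as hinder transcription. Nfkbiz, on chromosome 16 (55811375 to 55838954), encodes IkBzeta, known in macrophages as a co-activator of secondary response genes such as Il6. It had 3.74 FPKM in the anti-CD40 library and 5.53 FPKM in the IgG library, 1.48-fold lower (1.26 to 1.72) resting on roughly 290 fragments (anti-CD40) and 387 (IgG). Of all genes, 408 or 4.25% had a log2 ratio at most as high as its -0.46. Nfkbid, on chromosome 7 (30421731 to 30428749), encodes IkBNS. Its level was 21.3 FPKM in the anti-CD40 library and 24.7 FPKM in the IgG library, 1.16-fold lower (1.06 to 1.28), and 13.5% of genes had a log2 ratio at most as high. As deposited these were the only members lower with anti-CD40, although Nfkb2 joins them after centring and Nfkb2 and Rela after upper-quartile rescaling. Nfkbiz and Nfkbid were lower under each of the 7 alternatives of scaling, pseudocount and trend tried. Their sum was 25.001 FPKM in the anti-CD40 library and 30.2 FPKM in the IgG library, 1.21-fold lower (1.11 to 1.31). Bcl3, a related nuclear protein that is no member here, went the other way, with 25.9 FPKM in the anti-CD40 library and 21.2 FPKM in the IgG library, a ratio of 1.22 (1.11 to 1.34). Bcl3 therefore stood at 6.92 times Nfkbiz with anti-CD40 and 3.84 times with IgG. Of all genes, however, 24.2% had a log2 ratio at least as high as the 0.27 of Bcl3. Its interval began at 1.108, just above the median FPKM ratio of all genes, 1.106.

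The makeup of the inhibitor transcripts differed more between the libraries than that of the subunits. Nfkbia made up 48.3% of the summed IkB FPKM with anti-CD40 and 37.1% with IgG. Nfkbid made up 17.9% with anti-CD40 and 24.9% with IgG, and Nfkbiz 3.15% with anti-CD40 and 5.59% with IgG. Nuclear IkB transcripts were 0.267 per cytoplasmic one with anti-CD40 and 0.439 with IgG, a quotient of 0.607 (0.551 to 0.669). Among the subunits, Rela made up 41.6% with anti-CD40 and 41.2% with IgG. Nfkb2 made up 31.9% with anti-CD40 and 34.3% with IgG, and Nfkb1 6.39% with anti-CD40 and 4.98% with IgG. Summed over all members, there were 0.903 IkB transcripts per subunit transcript with anti-CD40 and 0.823 with IgG, a quotient of 1.10 (1.04 to 1.16). That last difference, 0.13 on the log2 scale, depends on how genes are weighted: with each gene weighing the same it is -0.12. Nfkbia stood at 1.05 times Rela with anti-CD40 and 0.742 times with IgG (quotient 1.41, 1.29 to 1.55). Nfkbia and Nfkb1 kept closer proportions, at 6.83 with anti-CD40 and 6.13 with IgG (1.11, 0.969 to 1.28).

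**Figure D3:**
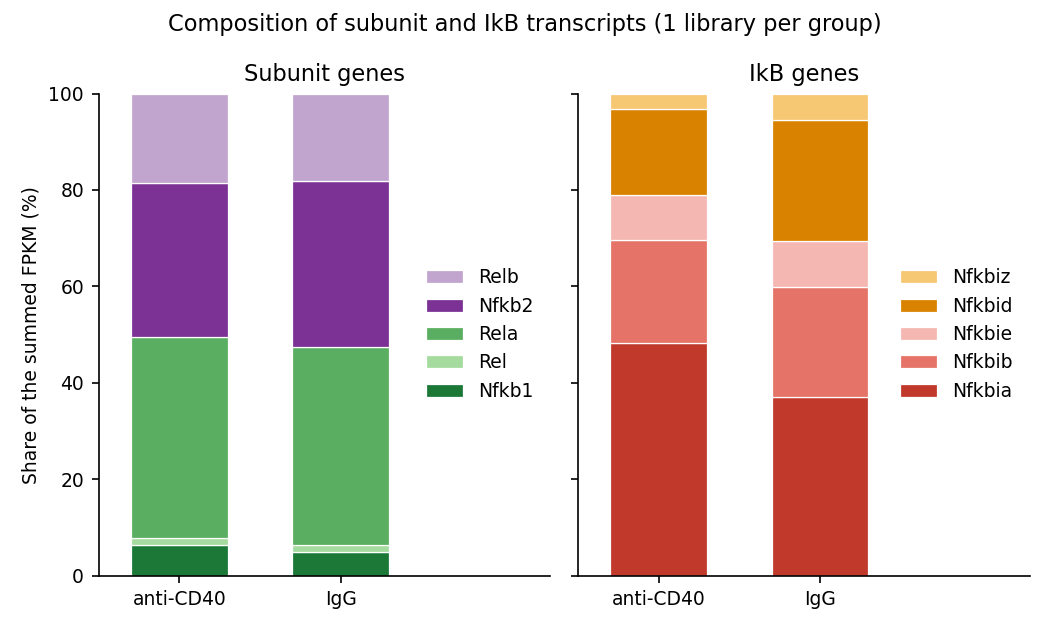
Share of the summed FPKM held by each gene (%), for the 5 subunit genes (left) and the 5 IkB genes (right), 1 bar per library. Nfkbia takes 48.3% of the IkB bar with anti-CD40 and 37.1% with IgG, while Rela takes 41.6% of the subunit bar with anti-CD40 and 41.2% with IgG.

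Against all genes, most members were unremarkable. Thresholds are folds on the log2(FPKM + 1) scale. Nfkb1 and Nfkbia were at least 25% higher with anti-CD40, 2 of 10 members where 18.3% of all genes were. Nfkbiz was at least 20% lower, the same fold downwards, 1 of 10 members where 8.26% of all genes were. Nfkbia alone was at least 1.5-fold higher (2.68% of all genes), and no member was at least 1.5-fold lower (2.15%). No member was 2-fold higher (0.25%) or 2-fold lower (0.313%). The shares of members are too near the background to be a result about the family. The median log2 ratio of the members was 0.16, and 6 of 10 lay within 0.1 of the median of all genes. Nfkb1 is no longer 25% higher when the libraries are centred on the median gene (log2 0.30), rescaled to upper quartiles (0.30) or given a pseudocount of 5 (0.29). Nfkbid is at least 20% lower when they are centred (-0.33) or rescaled to upper quartiles (-0.35), and Nfkbiz no longer is with a pseudocount of 5 (-0.27). Nfkbia falls below 1.5-fold when the libraries are centred on the median gene, at 0.51 on the log2 scale. Among the 500 genes nearest in level, 3.2% had a ratio at least as high as Nfkbia, 8.6% as high as Nfkb1, and 0.8% at most as high as Nfkbiz. The 25% threshold and the comparison with genes of like level were chosen after values had been seen.

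**Figure D4:**
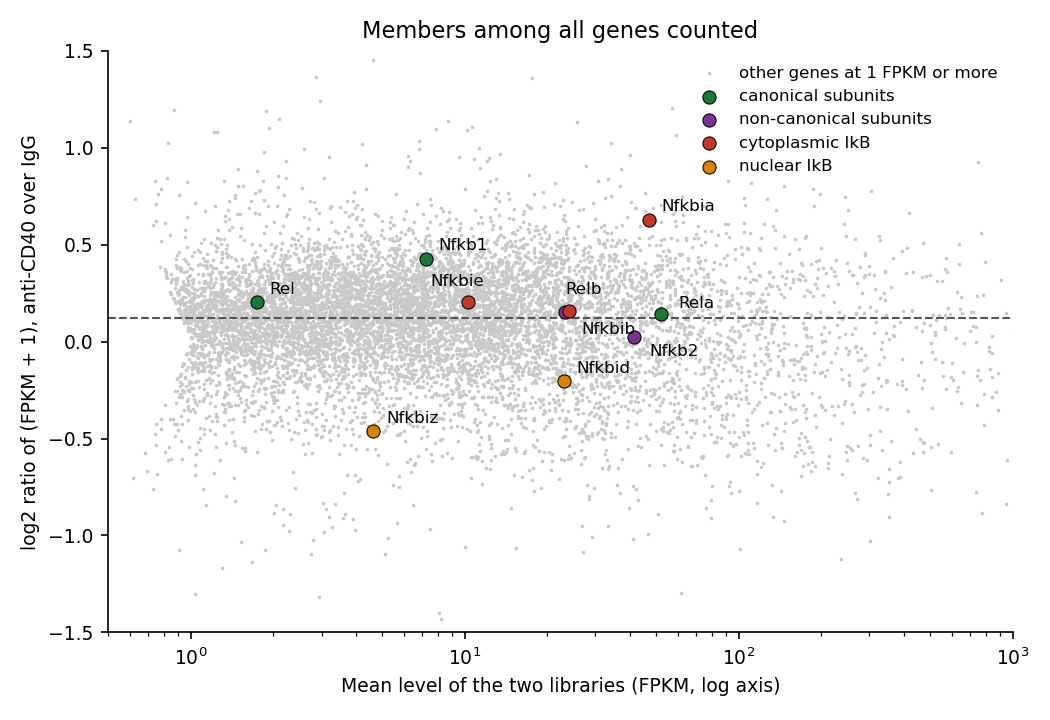
log2 ratio of (FPKM + 1), anti-CD40 over IgG, against the mean FPKM of the libraries (log axis), for the genes at 1 FPKM or more in at least 1 library, with the members coloured by group. The dashed line is the median of all genes (0.12), 6 members lie within 0.1 of it, and 92 genes fall outside the axes.

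Promoter windows of 250 bases before RefSeq starts (GRCm38.p6) were available for 7 of the 10 members, with 11 start sites between them. Not every start had a window: the Nfkb2 gene begins at 46300994, upstream of all its windows. Those of Nfkb1, Relb and Nfkbiz were not used here. On either strand, the kB consensus, the textbook binding sequence of NF-kB, was found before 7 start sites of 5 members (Nfkbia, Rel, Nfkbie, Nfkbid and Nfkb2), and in 3.90% of 32851 windows of all genes. A looser pattern, GGG and CC with any 5 bases between them, was found before 10 of the 11 start sites and in 45.8% of all windows, and it includes every match to the consensus. GGGCGG was found before 8 of the 11, against 32.7% of all windows, and TATAAA before 0 of the 11, against 12.4%. The windows of Nfkbib and Rela held no match to the consensus in these letters. A match is a description of the letters and was not tested as a site. The Nfkbia window is given whole, since Nfkbia had the largest ratio, and those of Rel, Nfkbie and Nfkbid as the match with 20 bases on either side. Nfkb2 had matches before each of its 3 start sites with a window, in windows that overlap annotated exons and are not printed. Capitals mark the match, and all are written 5′ to 3′ on the strand of the gene.

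The Nfkbia window is chr12:55492648-55492897, minus strand, with the match ending 20 bases before the start.
Nfkbia: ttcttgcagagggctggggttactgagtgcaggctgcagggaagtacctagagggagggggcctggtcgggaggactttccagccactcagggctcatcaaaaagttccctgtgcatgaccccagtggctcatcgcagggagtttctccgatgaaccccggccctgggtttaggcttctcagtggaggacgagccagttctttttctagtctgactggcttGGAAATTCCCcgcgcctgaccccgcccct
The Rel window is chr11:23771031-23771081, minus strand, where overlapping matches on both strands span 11 bases.
Rel: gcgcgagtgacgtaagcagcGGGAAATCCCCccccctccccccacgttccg
The Nfkbie window is chr17:45555574-45555623, plus strand.
Nfkbie: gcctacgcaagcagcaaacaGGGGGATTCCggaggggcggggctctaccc
The windows of the next start site of Nfkbid are chr7:30422160-30422209 and chr7:30422205-30422254, plus strand.
Nfkbid, farther match: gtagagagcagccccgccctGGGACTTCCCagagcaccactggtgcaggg
Nfkbid, nearer match: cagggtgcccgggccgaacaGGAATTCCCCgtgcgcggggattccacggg
The members with a match differed in direction: the ratios were 1.56 for Nfkbia, 1.25 for Rel, 1.17 for Nfkbie, 1.02 for Nfkb2 and 0.862 for Nfkbid.

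Among the other genes of the pathway, 69 of 85 measured were at 1 FPKM or more, and with anti-CD40 10 of them were past 1.5-fold upwards, where 2.68% of all genes were, and 0 downwards, where 2.15% were. Centred on the median gene or rescaled to upper quartiles, 5 were past 1.5-fold upwards. Their median log2 ratio was 0.18, against 0.12 over all genes. The lists were chosen with earlier results of these data known, so these values are a description and not a test. The signalling genes differed little. Of 10 IKK and upstream kinase genes, 0 were past 1.5-fold in either direction, with a median of 0.11. Map3k14, the gene of NIK, named after its values were seen, had 3.93 FPKM in the anti-CD40 library and 3.42 FPKM in the IgG library (ratio 1.15, 0.975 to 1.35). Of the kinase list the largest differences were those of Tab1 and Tab2, partners of the kinase TAK1, and of Ikbke, an IKK relative. Tab1 had 13.6 FPKM in the anti-CD40 library and 17.7 FPKM in the IgG library, 1.30-fold lower, and Ikbke 71.3 FPKM with anti-CD40 and 88.8 FPKM with IgG, 1.24-fold lower. Tab2 went the other way, with 8.58 FPKM in the anti-CD40 library and 6.54 FPKM in the IgG library, a ratio of 1.31.

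The receptor gene Cd40 and the genes of its adaptors had a median log2 ratio of 0.19 over 8 genes, 0 of them past 1.5-fold. Of all genes, 2.68% were past it upwards and 2.15% downwards. In lists of this size, 0 or 1 gene past the fold is not a result about the list. The genes of the complex that keeps NIK low did not move together. Birc2 (cIAP1) had 3.56 FPKM in the anti-CD40 library and 2.19 FPKM in the IgG library (ratio 1.62, 1.30 to 2.02). Traf3 had 3.08 FPKM in the anti-CD40 library and 2.23 FPKM in the IgG library (1.38, 1.19 to 1.61), and Birc3 (cIAP2) 7.61 FPKM with anti-CD40 and 5.67 FPKM with IgG (1.34, 1.15 to 1.57). Traf2, of the same complex and named after its values were seen, was lower, with 7.71 FPKM in the anti-CD40 library and 9.48 FPKM in the IgG library (ratio 0.813, 0.709 to 0.930). Birc2 falls short of 1.5-fold on the log2(FPKM + 1) scale, which understates the difference of low genes.

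Of 9 genes of linear ubiquitin chains and deubiquitinases, 1 was at least 1.5-fold higher (2.68% of all genes). It was Tnfaip3, which encodes A20, an inducible brake on NF-kB signalling, with 8.60 FPKM in the anti-CD40 library and 4.03 FPKM in the IgG library (ratio 2.14, 1.87 to 2.43). Tnip2, a binding partner of A20, had 17.2 FPKM in the anti-CD40 library and 14.1 FPKM in the IgG library (1.22, 1.09 to 1.37). Otulin, which removes linear chains, had 38.3 FPKM in the anti-CD40 library and 47.0 FPKM in the IgG library, 1.23-fold lower.

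Of 11 genes of IkB and p100 degradation, 2 were at least 1.5-fold higher (2.68% of all genes). Btrc, the F-box protein that recognises phosphorylated IkBalpha and p100, had 1.85 FPKM in the anti-CD40 library and 0.821 FPKM in the IgG library (ratio 2.26, 1.504 to 3.52) resting on only 83 fragments (anti-CD40) and 33 (IgG). Rbx1, the RING subunit of the same ligase, had 36.5 FPKM in the anti-CD40 library and 23.1 FPKM in the IgG library (1.58, 1.44 to 1.73). Fbxw7, another F-box protein, had 5.36 FPKM in the anti-CD40 library and 7.60 FPKM in the IgG library, 1.42-fold lower (1.25 to 1.61). Of 12 co-factors and modifiers of Rel proteins, 1 was at least 1.5-fold higher (2.68% of all genes). It was Rps3, a ribosomal protein also described as a RelA partner, with 249.5 FPKM in the anti-CD40 library and 147.0 FPKM in the IgG library. Ribosomal protein genes have near-identical processed copies, so its value is uncertain. Commd1, which promotes RelA degradation, had 29.4 FPKM in the anti-CD40 library and 21.1 FPKM in the IgG library (1.39, 1.31 to 1.48). Akirin2, a nuclear partner of IkBzeta, had 11.1 FPKM in the anti-CD40 library and 8.56 FPKM in the IgG library (1.30, 1.09 to 1.55).

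The list of known target genes of the canonical pathway was likewise chosen with earlier results of these data known, so its values are a description. It had the highest median of the lists with more than 1 counted gene, 0.34 over 15 counted of 19 measured. Of the 15, 6 were at least 1.5-fold higher (2.68% of all genes) and 0 at least 1.5-fold lower (2.15%). Others were below 1 in ratio, named after their values were seen: Cflar, a survival gene, at 0.800 (0.695 to 0.919), Ccl5 at 0.939 (0.774 to 1.14) and Icam1 at 0.993 (0.936 to 1.05). Il1b, an inflammatory cytokine gene, had 13.6 FPKM in the anti-CD40 library and 3.9996 FPKM in the IgG library (ratio 3.41, 2.73 to 4.28). The neutrophil chemokine genes followed it: Cxcl1 had 11.1 FPKM in the anti-CD40 library and 4.65 FPKM in the IgG library, and Cxcl2 had 80.0 FPKM with anti-CD40 and 37.7 FPKM with IgG, ratios of 2.38 and 2.12. Targets of the non-canonical pathway could hardly be read in these macrophages, since 1 of 7 was at 1 FPKM or more. That was Icosl, a ligand of T cell costimulation, with 3.54 FPKM in the anti-CD40 library and 2.24 FPKM in the IgG library (1.58, 1.26 to 2.01). Of 6 IkBzeta targets, 1 was counted, the monocyte chemokine gene Ccl2, with 3.13 FPKM in the anti-CD40 library and 2.17 FPKM in the IgG library (1.44, 0.905 to 2.28). Its interval contains 1, so counting error alone could span the difference. With 1 library per group, an interval that excludes 1 does not show an effect of the treatment either.

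**Figure D5:**
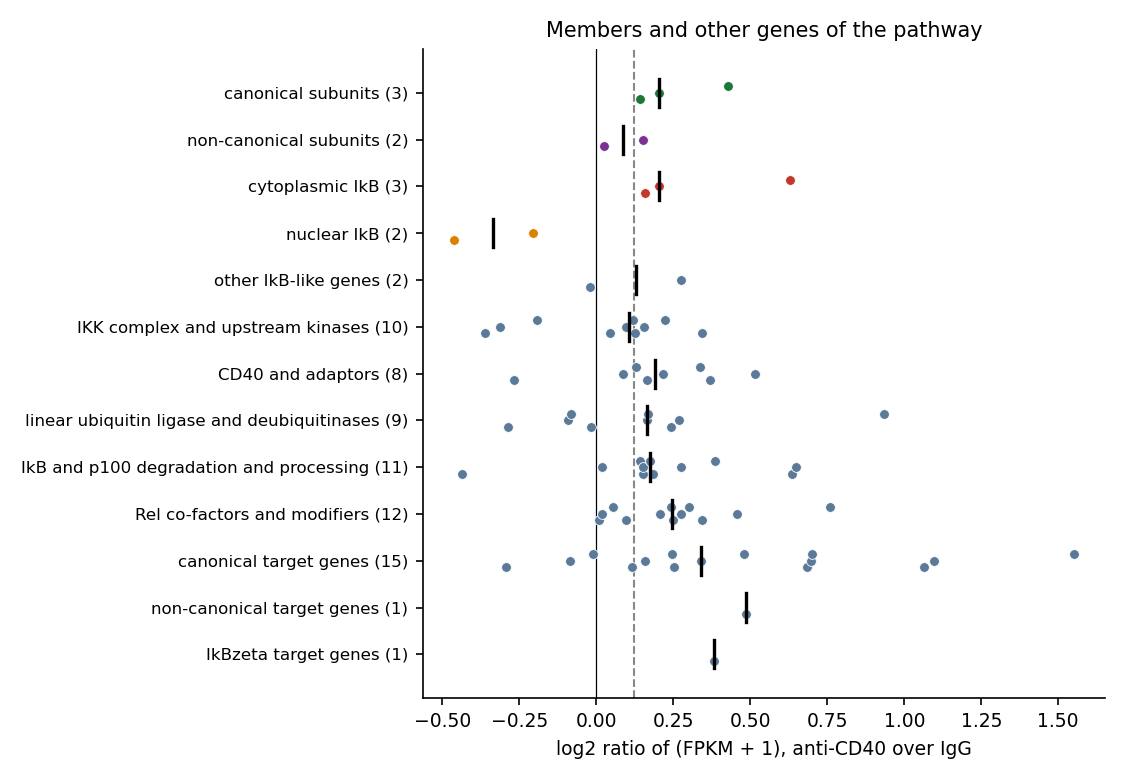
log2 ratio of (FPKM + 1), anti-CD40 over IgG, of each counted gene (points) in the member groups and the pathway lists, with the number of counted genes in brackets and the median as a bar. The dashed line is the median of all genes (0.12); the canonical targets have a median of 0.34 and the IKK and upstream kinases one of 0.11.

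Some members share ground with other genes, and the strand setting of the counting is not given in the sources used here. Nfkb2 overlaps Psd on the opposite strand over 299 exonic bases, and Psd had 1.38 FPKM in the anti-CD40 library and 1.04 FPKM in the IgG library. It also overlaps the long non-coding 4833438C02Rik, with 1.71 FPKM in the anti-CD40 library and 2.31 FPKM in the IgG library. Nfkb1 overlaps Gm46827, which was below 0.25 FPKM in both libraries, and Nfkbib overlaps Ccer2, listed at 0 in both. All these partners were far below the member they overlap.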

How the data were processed

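The file deposited by the authors lists each gene once with 1 number per library, read here as FPKM. The header names no unit: FPKM was inferred from StringTie, named in the submitters' processing notes with HISAT2 2.1.0 and mm10, and from column sums that differ (529104 with anti-CD40, 547362 with IgG). The annotation is not given in the sources used here, nor is the strand setting. Columns were assigned by name, and 0 were left unused. The measure was the log2 ratio of (FPKM + 1), which understates differences of low genes, over genes at 1 FPKM or more in at least 1 library, and folds in the text are FPKM ratios. With 1 library per group there was no test.

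Depth was estimated from the steps of low values, by a search from 4 to 8 gigabases for the largest share at whole multiples. At the depth kept, with anti-CD40 72.5% of 51 low genes, and with IgG 88.9% of 27, were whole multiples within 0.05 steps. The search maximised these shares, so they are no separate check of the depth. Absolute depth assumes 150-base reads and 300-base fragments, giving 20.5 (anti-CD40) and 18.6 (IgG) fragments per kilobase at 1 FPKM. Gene intervals are 95% exact conditional binomial, with the median GENCODE (release 21) transcript length (97.2% of counted genes had one). Intervals of sums and quotients use a normal approximation on the log scale. All cover counting error only. Coordinates are RefSeq's, GRCm38.p6. Python 3.11.15, pandas 2.3.3, scipy 1.17.1 and statsmodels 0.14.6 were used.

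The members, lists and naming rule (all members, Bcl3, and up to 3 genes per list with the largest absolute log2 ratio) were chosen with earlier results of these data known, and the promoter motifs after values had been seen. Alternatives were pseudocounts of 0.1 and 5, 3 scalings, no filter, a filter at 5 FPKM and equal weights, and, chosen after seeing the data, removal of GC and length trends (lowess span 0.3).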

Additional observations from a re-analysis of the deposited data

How the results depend on the processing

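Centring on the median gene and upper-quartile rescaling (which brings the median log2 ratio of all genes to 0.00027, against 0.12) changed most values. Members at least 1.5-fold higher numbered 0 under either and with a pseudocount of 5, against 1, and pathway genes 5 under either and 6 with a pseudocount of 5, against 10. The pathway median became 0.061 centred and 0.070 rescaled. Centred and rescaled, the log2 ratios of the sums were 0.067 and 0.041 for canonical subunits, -0.050 and -0.076 for non-canonical subunits, 0.32 and 0.30 for cytoplasmic IkB genes, and -0.39 and -0.42 for nuclear IkB genes. With equal weights the cytoplasmic value was 0.33 and the difference of IkB from subunit genes -0.12, against 0.13. The GC trend was removed with the median of all genes, 0.12, added back, unlike in the distances from the trend given earlier. Its removal raised Rela to 0.27 (against 0.14), Nfkb2 to 0.15 (against 0.023) and Relb to 0.29 (against 0.15), among others. It lowered Rel to 0.16 (against 0.20) and Nfkbiz to -0.49 (against -0.46). Of the members under 7 alternatives, Nfkb2 turned negative in 2 and Rela in 1. The others kept their direction, Nfkbia between 0.48 and 0.68, Nfkb1 between 0.29 and 0.48, Nfkbid between -0.35 and -0.11, and Nfkbiz between -0.58 and -0.27. The cause was not tested. With 1 library per group, no difference can be set against the spread between cultures, and the intervals rest on an inferred unit and depth.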
